A study of Mus musculus with 12 samples.

Results

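Rhodopsin-like receptors other than chemokine receptors were followed in mouse hematopoietic stem and progenitor cells with and without a knockdown of *Rad21*, a subunit of the cohesin ring. A list of 49 receptor genes was looked up by symbol through the gene identifiers of the count table, and a receptor was kept if it had 10 or more counts in at least 3 of the 12 libraries. This left 42 receptors out of 46078 genes counted. The kept set held 14 of 15 lysophospholipid and other lipid receptors, 8 of 9 nucleotide and adenosine receptors, 3 of 4 protease-activated receptors, all 8 prostanoid and leukotriene receptors, 2 of 5 peptide and complement receptors, and 7 of 8 receptors for amines, metabolites, protons, and other ligands. Because the threshold used the counts of these same libraries, the number of receptors that passed it is a description of the list.

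Rhodopsin-like receptors are single proteins that cross the cell membrane in a bundle of helices, bind a ligand on the outside, and activate a heterotrimeric G protein on the inside. The alpha subunit of that G protein sets the response: Gs proteins raise cAMP, Gi proteins lower it, and Gq proteins release calcium through phospholipase C. RGS proteins end the signal by speeding up GTP hydrolysis, and receptor kinases with arrestins take the receptor out of service. In bone marrow, sphingosine 1-phosphate receptors are known for guiding cells between tissue and blood, prostaglandin E2 receptors for acting on stem cells, nucleotide receptors for sensing ATP, ADP, and UDP sugars from damaged cells, and protease-activated receptors for responding to thrombin, which cuts their extracellular end.

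The study compared 4 groups of 3 libraries. C57BL/6 bone marrow LSK cells (lineage-negative, Sca-1- and c-Kit-positive cells, a stem and progenitor fraction) were infected with a lentivirus that carried EGFP and an shRNA in a mir30 backbone, directed against *Rad21* (shRad21) or, as the control, against luciferase (shLuci). In culture, infected cells were kept in serum-free medium with cytokines, and GFP+ CD48- Sca-1+ cells were sorted after 3 d. In vivo, infected cells were given to lethally irradiated mice, and GFP+ LSK cells were sorted 3 mo after transplantation by the labels, whereas the study's methods give a later time. The labels give no age for the mice. Whether a library came from pooled or single mice was not stated, so p-values measure the spread between these libraries. The library kit (TruSeq RNA v2 in culture, SMART-Seq v4 with Nextera XT in vivo), the sort gate, and the sequencing lane differed between both experiments, so that they and the setting cannot be told apart.

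Each library held 15.2 to 29.8 × 1000000 counts assigned to genes, so that 3 counts, taken as the smallest detectable amount, equaled 0.107 to 0.211 CPM. CPM here are counts per 1000000 after TMM scaling over all 12 libraries, and the limit covers counting error only. *Rad21*, the target, was at 384, 419 and 405 CPM in shLuci and 154, 137 and 128 CPM in shRad21 cells in culture, and in vivo at 118, 124 and 125 CPM in shLuci against 43.4, 47.7 and 43.6 CPM in shRad21 cells. All 10 markers of stem and progenitor cells passed the filter in both experiments, and 4 were called higher and 2 lower in culture, and 4 higher and 3 lower in vivo. *Flt3*, a receptor of multipotent progenitors, was at 689, 706 and 705 CPM in shLuci and 193, 228 and 260.3 CPM in shRad21 cells in vivo, and *Slamf1* (CD150), a stem cell marker, at 11.0, 10.7 and 12.0 CPM and 51.3, 46.0 and 40.9 CPM. *Flt3* also fell and *Slamf1* also rose in culture. *Kit* was lower in every shRad21 library of both experiments. In culture it was at 75.9, 80.8 and 92.9 CPM per kb of exon in shLuci and 30.2, 29.8 and 32.9 in shRad21 cells. In vivo, *Kit* was at 102, 110 and 95.6 CPM per kb of exon in shLuci and 69.3, 78.9 and 78.2 in shRad21 cells. Replicates 2 and 3 of the shLuci in vivo libraries stood apart, with 26938 and 25108 genes with a count against 21502 to 23217 in the others, and with the 2 highest levels of the plasma cell gene *Jchain*. Among markers of other cells, the summed level of 8 megakaryocyte and platelet genes was higher with the knockdown, at 1260 to 1840 CPM against 995 to 1240 CPM in culture and 1540 to 1740 CPM against 671 to 823 CPM in vivo. Of 9 monocyte and macrophage genes, 4 of 6 tested were called lower and 1 higher in culture, and 3 of 8 lower and 0 higher in vivo, where 7 of the 8 had negative values. Their sum, most of which is *Lyz2*, was 158 to 176 against 177 to 241 CPM in culture and 509 to 575 against 551 to 623 CPM in vivo. In vivo, the sums of neutrophil (1030 to 1170 against 1450 to 1810 CPM), T and NK cell (218 to 248 against 380 to 495 CPM), dendritic (5.41 to 6.83 against 11.2 to 12.7 CPM), and red cell genes (30.8 to 39.2 against 39.5 to 54.3 CPM) were lower in each shRad21 library, and mast cell genes were higher (529 to 612 against 352 to 398 CPM). The neutrophil sum was mostly *Mpo*, the T and NK cell sum *Nkg7*, and the mast cell sum *Gata2*. Of 9 neutrophil genes tested in vivo, 1 was called lower and 9 had negative values, and of 5 dendritic genes 1 and 4. Of 6 red cell genes, 2 were called lower and 5 had negative values, and of 4 T and NK cell genes 3 and 4. Of 7 mast cell genes, 3 were called higher and 3 had negative values. Of 8 B and plasma cell genes, 5 were called lower in vivo (*Cd79a*, *Pax5*, and *Ebf1* among them) and all 8 had negative values, while their sum, mostly *Jchain* and *Cd79b*, was 129 to 209 against 152 to 399 CPM. *Ly6g* (neutrophils), *Ms4a1* (B cells), *Cd8a* (T cells), and *Hba-a1* and *Slc4a1* (red cells) had 0 counts in every culture library, and no marker had 0 counts in all libraries of a group in vivo. The part of these shifts in the receptor results was not tested. In such bulk libraries, fewer cells of a type and less RNA per cell cannot be told apart.

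The knockdown changed the receptors in both directions, and the protease-activated class was the one with rises only among its calls. In culture, 39 receptors had enough counts for a test, and 6 rose and 15 fell at an adjusted p under 0.05. The median log2 fold change of the 39 was -0.21, whereas it was -0.0039 over all 15543 genes tested. Of all genes tested in culture, 14.2% passed the threshold, 6.18% upward and 8.06% downward. In vivo, 5 of 40 tested receptors rose and 11 fell, with a median of -0.15 against -0.0019 over all 15938 genes tested. The share of all genes past the threshold in vivo was 11.0%, with 5.65% upward and 5.32% downward. For each of the 21 receptors called in culture and the 16 called in vivo, the shLuci and shRad21 libraries did not overlap. With 3 libraries per group, a call largely brings this separation with it, so it is no further support. The share of all genes without overlap was not taken. In both experiments, the share of receptors called was higher than that of all genes, but the receptors had been listed with results of these data known, and the shares are given as a description.

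**Figure D1:**
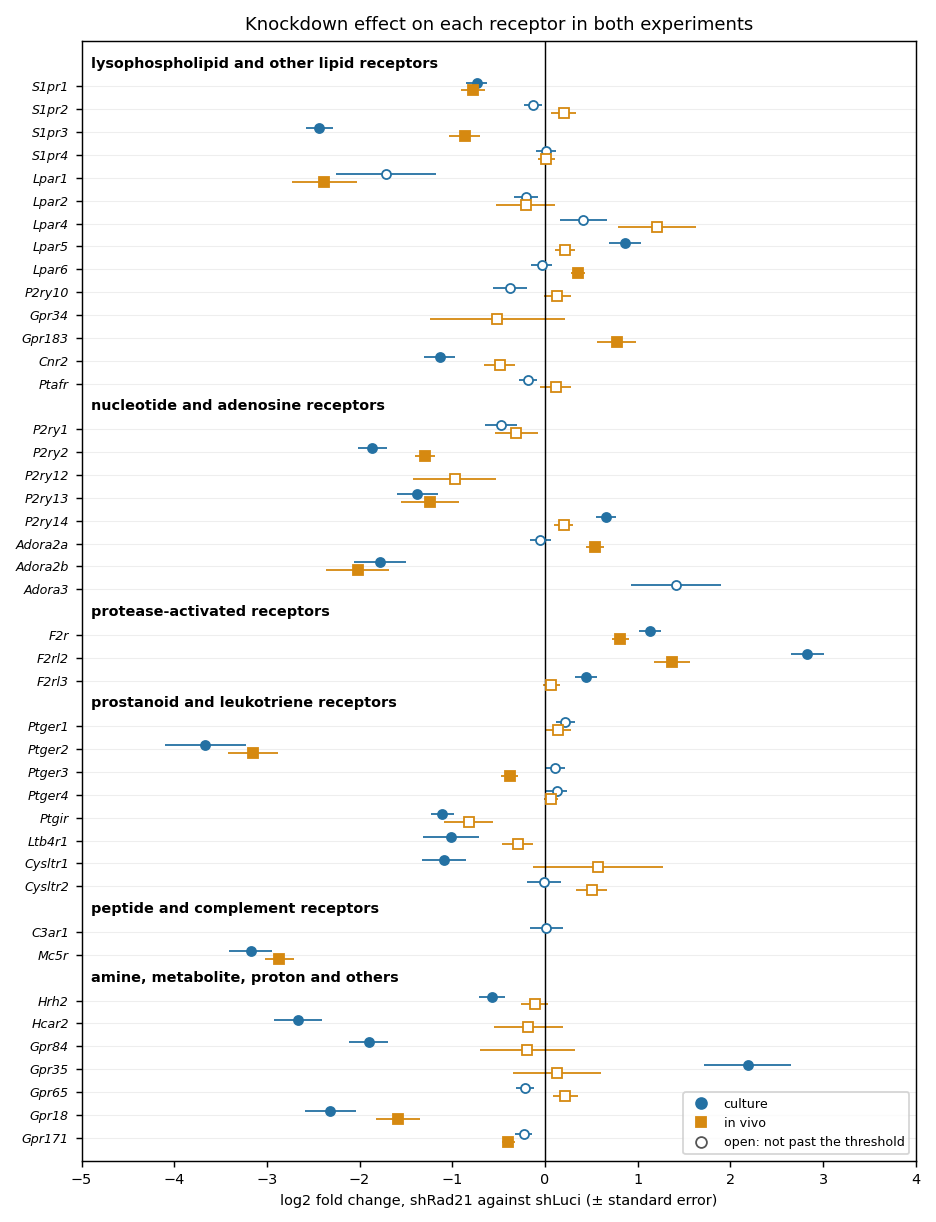
Log2 fold change of shRad21 against shLuci cells (x axis, with standard errors) for the 42 receptors (y axis, grouped by ligand class), in culture (circles) and in vivo (squares), 3 libraries per group. Filled symbols passed an adjusted p of 0.05; *Ptger2* and *Mc5r* lie farthest left in both experiments and *F2rl2* farthest right.

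In both experiments, 10 receptors were called, each in the same direction: *S1pr1*, *S1pr3*, *P2ry2*, *P2ry13*, *Adora2b*, *Ptger2*, *Mc5r*, and *Gpr18* fell, and *F2r* and *F2rl2* rose. These 10 were 47.6% of the receptors called in culture and 62.5% of those called in vivo. The matching shares over all called genes were not taken, so these values and the shared directions describe the list only. Another 11 were called in culture without a call in vivo, 6 in vivo without a call in culture, and 11 of the 37 tested in both were called in neither. No receptor was called in opposite directions.

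**Figure D2:**
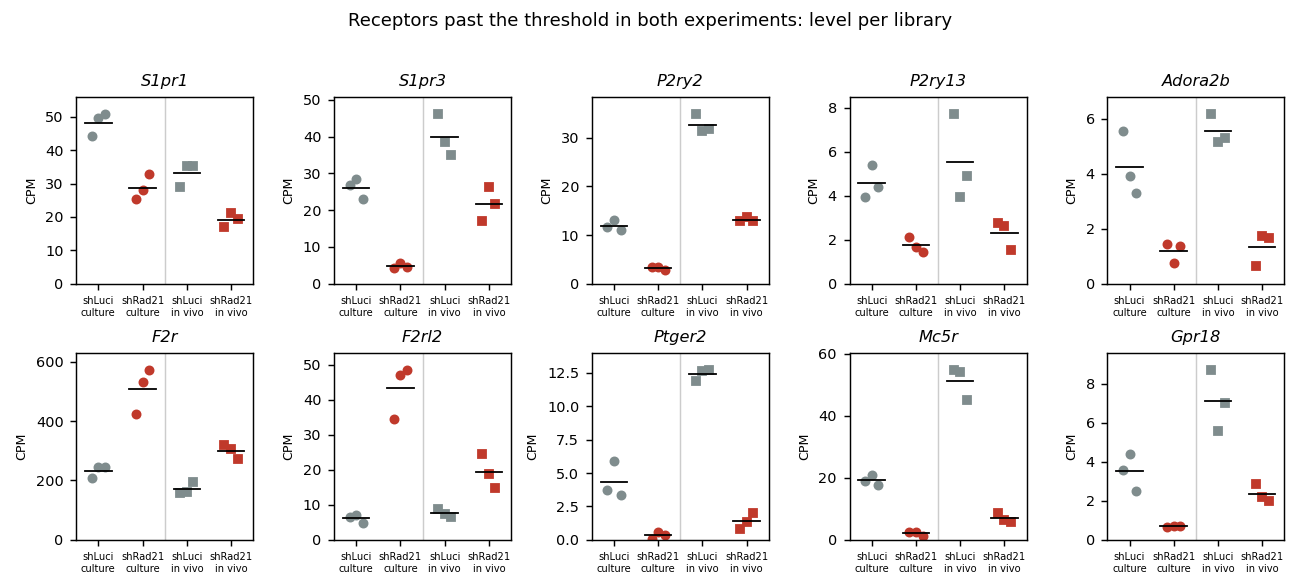
Level in CPM (y axis, starting at 0) of the 10 receptors past the threshold in both experiments, 1 point per library and a line at the mean, for the shLuci and shRad21 groups in culture and in vivo (x axis). In each panel and experiment, the 3 shRad21 points lie on 1 side of the 3 shLuci points.

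Among the sphingosine 1-phosphate receptors, *S1pr1* and *S1pr3* fell and *S1pr2* and *S1pr4* did not pass the test. *S1pr1*, the Gi-coupled receptor that leads lymphocytes out of tissue (chromosome 3, 115710433 to 115715072, minus strand), was at 44.2, 49.6 and 51.0 CPM in shLuci and 25.4, 28.1 and 32.9 CPM in shRad21 cells in culture. In vivo it was at 29.0, 35.2 and 35.1 CPM in shLuci and 16.9, 21.3 and 19.3 CPM in shRad21 cells. The groups did not overlap in either experiment, and the log2 fold changes were -0.74 (standard error 0.11, edgeR adjusted p = 0.00143) and -0.77 (standard error 0.13, edgeR adjusted p = 0.00484). *S1pr3*, which couples to several G proteins (chromosome 13, 51408639 to 51422797, plus strand), was at 26.9, 28.4 and 23.1 CPM in shLuci against 4.37, 5.61 and 4.48 CPM in shRad21 cells in culture. In vivo, the same receptor was at 46.3, 38.5 and 35.0 CPM against 17.1, 26.2 and 21.7 CPM. The fall was -2.44 (standard error 0.14, edgeR adjusted p = 1.16e-05) in culture and -0.86 (standard error 0.17, edgeR adjusted p = 0.00942) in vivo, so that every knockdown library in culture lay under 6 CPM while the knockdown libraries in vivo stayed above 17 CPM. *S1pr4*, a receptor of blood cells, stood between 37.5 and 47.3 CPM in all 12 libraries, and *S1pr2* between 22.2 and 36.3 CPM. *S1pr5* had at most 8 counts in a library and was not kept.

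Of the lysophosphatidic acid receptors, *Lpar1* fell in vivo, *Lpar5* rose in culture, and *Lpar6* rose in vivo. *Lpar1*, a widely expressed receptor of the Edg type, was at 5.21, 5.9 and 4.42 CPM in shLuci and 1.47, 0.494 and 0.988 CPM in shRad21 cells in vivo, log2 fold change -2.38 (standard error 0.35, edgeR adjusted p = 0.00241). In culture its level was near the detection limit, at 1.05, 0.976 and 0.654 CPM against 0.536, 0.0505 and 0.178 CPM, log2 fold change -1.72 (standard error 0.54, edgeR adjusted p = 0.0567). With the replicate number as a block, which the culture libraries allow, this value passed at an edgeR adjusted p of 0.00752. *Lpar5*, which is related to the nucleotide receptors, was the lipid receptor that rose in culture, from 9.83, 6.98 and 7.66 CPM to 17.6, 12.1 and 14.2 CPM, log2 fold change 0.86 (standard error 0.18, edgeR adjusted p = 0.0076). In vivo, it was at 19.3, 22.7 and 20.4 CPM in shLuci and 23.9, 23.2 and 24.7 CPM in shRad21 cells, log2 fold change 0.22 (standard error 0.11, edgeR adjusted p = 0.274). *Lpar6*, whose gene lies in an intron of *Rb1* and shares 7.56% of its exonic bases with other genes, rose in vivo from 48.3, 46.7 and 44.1 CPM to 59.3, 56.7 and 60.1 CPM, log2 fold change 0.36 (standard error 0.072, edgeR adjusted p = 0.0118). In culture, *Lpar6* overlapped at 57.3, 61.1 and 74.5 CPM and 58.5, 59.8 and 69.1 CPM. Without shRad21 in vivo replicate 3, the edgeR adjusted p for *Lpar6* was 0.0682. *Lpar2* and *Lpar4* did not pass in either experiment.

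Of the other lipid receptors, *Cnr2*, the cannabinoid receptor of immune cells, fell in culture. Its level went from 11.5, 10.5 and 8.45 CPM to 4.33, 5.0 and 4.41 CPM, log2 fold change -1.14 (standard error 0.17, edgeR adjusted p = 0.00114). In vivo, *Cnr2* was at 11.4, 11.6 and 12.9 CPM in shLuci and 7.23, 10.2 and 7.81 CPM in shRad21 cells, without overlap but short of the threshold, at -0.49 (standard error 0.16, edgeR adjusted p = 0.0932). *Gpr183*, the oxysterol receptor that positions B cells and dendritic cells, was under 0.25 CPM in every culture library. In vivo, it was at 4.0, 3.13 and 3.76 CPM against 7.33, 6.11 and 4.99 CPM, log2 fold change 0.77 (standard error 0.21, edgeR adjusted p = 0.0422), and the adjusted p lay between 0.0507 and 0.149 with any 1 of the 6 libraries left out. *Ptafr* (platelet-activating factor), *P2ry10* (lysophosphatidylserine), and *Gpr34* (also lysophosphatidylserine) were not called in a knockdown comparison. *Gpr34* was just inside the count threshold, with 10 or more counts in 4 libraries and 6, 28 and 21 counts in shLuci and 24, 3 and 12 in shRad21 cells in vivo.

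Of the 8 kept nucleotide and adenosine receptors, *P2ry2*, *P2ry13*, and *Adora2b* fell in both experiments, *P2ry14* rose in culture, *Adora2a* rose in vivo, and the other 3 were not called. *P2ry2*, the Gq-coupled receptor for ATP and UTP (chromosome 7, 100996568 to 101012866, minus strand), was at 11.7, 13.1 and 11.0 CPM in shLuci and 3.42, 3.44 and 2.92 CPM in shRad21 cells in culture. In vivo, *P2ry2* was at 34.9, 31.3 and 31.7 CPM in shLuci and 12.8, 13.7 and 12.8 CPM in shRad21 cells. All shRad21 libraries lay below all shLuci libraries of their experiment, and the log2 fold changes were -1.86 (standard error 0.16, edgeR adjusted p = 4.47e-05) and -1.30 (standard error 0.11, edgeR adjusted p = 0.000118). *P2ry13*, a Gi-coupled ADP receptor (chromosome 3, 59207892 to 59210882, minus strand), went from 3.93, 5.39 and 4.39 CPM to 2.14, 1.67 and 1.46 CPM in culture, log2 fold change -1.38 (standard error 0.22, edgeR adjusted p = 0.002). In vivo, it went from 7.74, 3.94 and 4.91 CPM to 2.75, 2.61 and 1.55 CPM, log2 fold change -1.24 (standard error 0.31, edgeR adjusted p = 0.0313), and with any library other than shLuci replicate 2 left out the adjusted p was between 0.0504 and 0.116. *P2ry14*, the Gi-coupled receptor for UDP-glucose that is known from stem and progenitor cells, rose in culture from 39.2, 35.9 and 32.1 CPM to 53.4, 52.5 and 62.1 CPM, log2 fold change 0.66 (standard error 0.10, edgeR adjusted p = 0.00182). In vivo, *P2ry14* was at 129.7, 107 and 94.1 CPM in shLuci and 124, 128 and 124 CPM in shRad21 cells, and the groups overlapped (0.20, edgeR adjusted p = 0.278). *P2ry1*, a Gq-coupled ADP receptor, did not pass in culture at -0.48 (standard error 0.17, edgeR adjusted p = 0.091), but did at an adjusted p of 0.0404 with the replicate block. *P2ry1* shares 23.1% of its exonic bases with a gene model on the other strand, so its counts are uncertain. The platelet ADP receptor *P2ry12* had 1 to 3 counts in each culture library and was tested in vivo, where it had 21, 23 and 13 counts in shLuci and 12, 8 and 9 in shRad21 cells and was not called. *P2ry6*, a UDP receptor, reached 10 counts in 2 libraries, just outside the threshold.

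The Gs-coupled adenosine receptors differed from each other. *Adora2b*, the low-affinity receptor (chromosome 11, 62248984 to 62266453, plus strand), fell in culture from 5.54, 3.9 and 3.32 CPM to 1.44, 0.758 and 1.39 CPM, log2 fold change -1.78 (standard error 0.28, edgeR adjusted p = 0.00194). In vivo it fell from 6.18, 5.15 and 5.31 CPM to 0.641, 1.75 and 1.65 CPM, log2 fold change -2.02 (standard error 0.34, edgeR adjusted p = 0.00453). *Adora2a*, the high-affinity receptor, rose in vivo from 43.3, 34.0 and 37.6 CPM to 53.3, 57.0 and 54.8 CPM, log2 fold change 0.54 (standard error 0.096, edgeR adjusted p = 0.00637). In culture, *Adora2a* was at 35.4, 39.1 and 38.7 CPM in shLuci and 31.0, 36.6 and 41.3 CPM in shRad21 cells, with overlapping groups. *Adora3*, a Gi-coupled adenosine receptor known from mast cells that shares 20.9% of its exonic bases with *Tmigd3*, was at 0.491, 0.77 and 1.26 CPM against 0.866, 2.42 and 3.63 CPM in culture. Its log2 fold change of 1.42 (standard error 0.49, edgeR adjusted p = 0.0833) missed the threshold, whereas the replicate block gave an adjusted p of 0.000693. Beside *Adora3*, the summed level of 7 mast cell and basophil markers was 240 to 303 CPM in shLuci and 345 to 539 CPM in shRad21 cells in culture. Most of this sum is *Gata2*, and of 5 markers tested there, 2 were called higher, 0 lower, and 1 had a negative value.

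All 3 kept protease-activated receptors rose in culture, and 2 of them rose in vivo. *F2r*, the main thrombin receptor PAR1 (chromosome 13, 95601803 to 95618487, minus strand), had the highest level of all 42 receptors per kb of exon in shLuci cells in culture. It went from 209, 245 and 246 CPM in shLuci to 424, 531 and 573 CPM in shRad21 cells in culture, log2 fold change 1.13 (standard error 0.12, edgeR adjusted p = 0.000156). In vivo, *F2r* went from 159, 160.5 and 196 CPM to 319, 306 and 271 CPM, log2 fold change 0.81 (standard error 0.093, edgeR adjusted p = 0.000595). *F2rl2*, PAR3, a thrombin-binding cofactor of the family (chromosome 13, 95696853 to 95702739, plus strand), lies next to *F2r* and had a larger fold change in both experiments. Its level in culture was 6.46, 7.24 and 4.81 CPM in shLuci and 34.6, 47.2 and 48.6 CPM in shRad21 cells, log2 fold change 2.83 (standard error 0.18, edgeR adjusted p = 1.43e-05). In vivo, it was at 8.77, 7.32 and 6.59 CPM and 24.5, 18.8 and 14.8 CPM, log2 fold change 1.37 (standard error 0.20, edgeR adjusted p = 0.002). *F2rl3*, PAR4, the thrombin receptor of mouse platelets, went from 73.2, 51.9 and 56.2 CPM to 86.7, 75.5 and 82.0 CPM in culture, log2 fold change 0.44 (standard error 0.12, edgeR adjusted p = 0.0332), and with any library other than shLuci replicate 1 left out its adjusted p was between 0.0598 and 0.131. In vivo, the 2 groups of *F2rl3* overlapped, at 87.7, 95.7 and 89.4 CPM and 97.1, 82.0 and 104 CPM. *F2rl1*, PAR2, a trypsin receptor located in the same chromosome 13 stretch, had 9, 6 and 4 counts in the shLuci and 0, 0 and 0 in the shRad21 in vivo libraries and was not kept. The megakaryocyte and platelet markers that moved beside these receptors are given above: 6 of 8 were called higher in each experiment, with *Pf4* and *Ppbp* called lower in culture, and their part in these rises was not tested.

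Upstream sequence is shown for the 2 receptors that rose in both experiments and for *Ptger2* and *S1pr3*, which fell in both, so that the stretches before their start sites can be read side by side. The sequences are from RefSeq on GRCm38.p6 and end before the first transcribed base in both RefSeq and GENCODE. Of the 42 receptors, 34 had an entry. The search covered 6 motifs on both strands of the 250 bases before each start: AP-1 spelled TGANTCA, ETS spelled CCGGAA, then GATA spelled AGATAA, RUNX spelled TGTGGT, and, by their known consensus, kappaB sites and the core of the CTCF motif. TGANTCA reads alike on both strands, and matches of different motifs were free to overlap. The motifs were chosen after these sequences had been seen. The sequences are printed in lower case, 5′ to 3′ on the strand of the gene, with AP-1 matches in capitals.
*F2r*, chr13:95618488-95618716 (minus strand, 229 bases): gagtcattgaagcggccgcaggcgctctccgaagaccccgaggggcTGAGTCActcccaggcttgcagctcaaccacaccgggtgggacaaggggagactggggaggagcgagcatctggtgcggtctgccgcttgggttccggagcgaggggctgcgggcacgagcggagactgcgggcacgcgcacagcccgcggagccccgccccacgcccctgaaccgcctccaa
*F2rl2*, chr13:95696670-95696852 (plus strand, 183 bases): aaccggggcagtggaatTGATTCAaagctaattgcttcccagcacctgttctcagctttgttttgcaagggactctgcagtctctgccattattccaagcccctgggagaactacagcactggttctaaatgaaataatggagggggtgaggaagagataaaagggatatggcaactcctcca
*Ptger2*, chr14:44987861-44988110 (plus strand, 250 bases): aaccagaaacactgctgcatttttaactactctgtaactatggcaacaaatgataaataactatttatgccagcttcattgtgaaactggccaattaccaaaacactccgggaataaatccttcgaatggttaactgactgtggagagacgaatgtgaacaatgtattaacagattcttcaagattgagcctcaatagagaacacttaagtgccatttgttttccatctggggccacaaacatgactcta
*S1pr3*, chr13:51408368-51408617 (plus strand, 250 bases): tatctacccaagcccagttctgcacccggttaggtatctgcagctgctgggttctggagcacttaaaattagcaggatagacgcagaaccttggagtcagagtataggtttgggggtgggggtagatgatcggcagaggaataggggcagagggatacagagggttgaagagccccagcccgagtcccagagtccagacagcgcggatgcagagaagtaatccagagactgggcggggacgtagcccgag
An AP-1 match was present upstream of both *F2r* and *F2rl2* and of neither *Ptger2* nor *S1pr3*. In *F2r* it lay 198 to 204 bases before the RefSeq start, and in *F2rl2* 227 to 233 bases before it, with another match at 48 to 54 bases that falls inside the longer GENCODE transcript and is not printed. Of all 32851 promoters in the table, 6.75% held such a match. Among the receptors called higher in culture, 4 of 6 held one (*F2r*, *F2rl2*, *Gpr35*, and *P2ry14*), among those called lower 0 of 11 with an entry, and among those not called 4 of 15 (*Adora3*, *C3ar1*, *Lpar2*, and *P2ry10*). *Gpr35* was tested in culture through its shRad21 counts alone, as given above. Over all tested genes with an entry, the shares were 8.70% of those called higher in culture, 6.32% of those called lower, and 5.16% of the rest. In vivo, 2 of 4 receptors called higher (again *F2r* and *F2rl2*), 0 of 8 called lower, and 4 of 20 not called held a match. The in vivo shares over all tested genes with an entry were 8.76% of those called higher, 5.87% of those called lower, and 5.26% of the rest. The kappaB consensus was found upstream of *Lpar2* and of no other receptor with an entry, against 3.90% of all promoters. A CTCF core match was found for *P2ry1* and *Ptger4*, against 7.17% of all promoters. ETS matches were found upstream of 4 receptors, GATA matches of 6, and RUNX matches of 9 of the 34, with shares over all promoters of 12.0%, 9.99%, and 14%. A match describes letters and not binding, and the absence of a match says only that the letters are not in this window.

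Of the 4 prostaglandin E2 receptors, *Ptger2* had the largest fold change in both experiments. *Ptger2*, the Gs-coupled receptor EP2 (chromosome 14, 44988195 to 45003820, plus strand), whose upstream sequence is printed above, was at 3.72, 5.9 and 3.36 CPM in shLuci and 0.0824, 0.606 and 0.356 CPM in shRad21 cells in culture. The shRad21 libraries in culture held 2, 12 and 10 counts, and the log2 fold change was -3.66 (standard error 0.43, edgeR adjusted p = 0.000374). In vivo, the level went from 11.9, 12.7 and 12.7 CPM to 0.824, 1.35 and 1.98 CPM, log2 fold change -3.15 (standard error 0.27, edgeR adjusted p = 0.000142). *Ptger4*, EP4, the other Gs-coupled receptor of this ligand, was not called, with log2 fold changes of 0.13 (standard error 0.11) in culture and 0.066 (standard error 0.073) in vivo. *Ptger4* was at 65.9, 66.2 and 65.6 CPM in shLuci cells in vivo, above *Ptger2* in each of them also per kb, and 16.5% of its exonic bases are shared with other gene models. *Ptger3*, the Gi-coupled EP3, fell in vivo from 74.1, 81.1 and 76.6 CPM to 67.4, 52.2 and 56.4 CPM, log2 fold change -0.38 (standard error 0.095, edgeR adjusted p = 0.0301). Its adjusted p was 0.114 without shLuci replicate 2, 0.0653 without shLuci replicate 3, 0.0856 without shRad21 replicate 2, and 0.133 without shRad21 replicate 3. In culture, *Ptger3* overlapped at 31.2, 29.8 and 34.9 CPM and 32.1, 32.8 and 38.3 CPM. *Ptger1*, EP1, was not called in either experiment, and its counts are uncertain, since parts of its exons are shared with other gene models and the counting strand is not known.

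*Ptgir*, the Gs-coupled prostacyclin receptor, fell in culture from 39.2, 38.2 and 30.6 CPM to 15.3, 18.6 and 16.0 CPM, log2 fold change -1.11 (standard error 0.12, edgeR adjusted p = 0.000278). In vivo its level was low, at 7.21, 3.78 and 5.04 CPM in shLuci and 2.61, 3.41 and 2.92 CPM in shRad21 cells, with no overlap and log2 fold change -0.82 (standard error 0.26, edgeR adjusted p = 0.0776). *Ltb4r1*, the leukotriene B4 receptor of granulocytes, fell in culture from 2.32, 3.29 and 2.71 CPM to 0.783, 1.41 and 1.89 CPM, log2 fold change -1.01 (standard error 0.30, edgeR adjusted p = 0.0469). This call was near the threshold, and with any library other than shRad21 replicate 3 left out the adjusted p was between 0.0589 and 0.175. In vivo, *Ltb4r1* was at 11.7, 9.18 and 9.69 CPM in shLuci and 7.28, 9.75 and 7.53 CPM in shRad21 cells, with overlap. *Cysltr1*, a receptor for cysteinyl leukotrienes, fell in culture from 2.6, 3.7 and 4.48 CPM to 1.73, 1.77 and 1.6 CPM, log2 fold change -1.09 (standard error 0.23, edgeR adjusted p = 0.0102), with an adjusted p of 0.155 in a model of all 12 libraries. In vivo, it was at 0.178, 0.252 and 1.15 CPM in shLuci and 1.01, 0.359 and 0.988 CPM in shRad21 cells, and the groups overlapped. *Cysltr2*, the second such receptor, was at 6.18, 7.09 and 9.06 CPM and 6.68, 6.82 and 8.65 CPM in culture and did not pass in vivo either, where all shRad21 libraries were higher (0.50, edgeR adjusted p = 0.0896).

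Of the peptide and complement receptors, *Mc5r*, a Gs-coupled melanocortin receptor, fell in every knockdown library. In culture it was at 19.1, 20.8 and 17.7 CPM in shLuci and 2.68, 2.53 and 1.25 CPM in shRad21 cells, log2 fold change -3.17 (standard error 0.23, edgeR adjusted p = 2.07e-05). The in vivo levels of *Mc5r* were 54.9, 54.2 and 45.1 CPM in shLuci and 8.52, 6.56 and 5.84 CPM in shRad21 cells, log2 fold change -2.87 (standard error 0.16, edgeR adjusted p = 1.79e-05). These were the lowest adjusted p among the falling receptors in vivo and the second lowest in culture after *S1pr3*. *C3ar1*, the receptor for the complement peptide C3a, was tested in culture, where both groups overlapped at 5.83, 8.88 and 7.71 CPM and 6.76, 8.49 and 7.47 CPM. The formyl peptide receptors *Fpr1* and *Fpr2* and the C5a receptor *C5ar1*, known from mature phagocytes, had at most 12 counts in a library and were not kept.

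Among the remaining receptors, the metabolite receptors *Hcar2* and *Gpr84* fell in culture. *Hcar2*, the Gi-coupled receptor for hydroxybutyrate and niacin, went from 11.1, 9.86 and 8.17 CPM to 1.11, 2.32 and 1.21 CPM, log2 fold change -2.66 (standard error 0.26, edgeR adjusted p = 0.000127). In vivo, it was at 1.82, 1.56 and 1.24 CPM and 2.01, 0.899 and 1.13 CPM, and the groups overlapped. *Gpr84*, a receptor for medium-chain fatty acids that is known from activated myeloid cells, went from 27.1, 16.4 and 15.5 CPM to 5.15, 5.3 and 5.12 CPM in culture, log2 fold change -1.90 (standard error 0.21, edgeR adjusted p = 0.000233). It shares 39.5% of its exonic bases with an overlapping gene model, and in vivo it was at 2.05, 0.959 and 1.37 CPM and 2.34, 0.899 and 0.565 CPM. Beside both, 4 of 6 tested monocyte and macrophage markers were called lower in culture and 1 higher, and their part in these falls was not tested.

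*Gpr18*, a receptor known from lymphocytes (chromosome 14, 121911253 to 121915781, minus strand), fell in both experiments. In culture it went from 3.58, 4.42 and 2.52 CPM to 0.66, 0.707 and 0.712 CPM, log2 fold change -2.32 (standard error 0.28, edgeR adjusted p = 0.000378). In vivo it went from 8.72, 5.6 and 7.03 CPM to 2.84, 2.2 and 1.98 CPM, log2 fold change -1.59 (standard error 0.23, edgeR adjusted p = 0.00244). Beside *Gpr18* and *Gpr183*, the B and plasma cell markers called lower in vivo are given above, and in culture their sum was 18.2 to 21.6 CPM in shRad21 against 27.5 to 27.8 CPM in shLuci cells, mostly *Cd79b*. Of the T and NK cell markers, *Lck*, *Nkg7*, and *Il2rb* were called lower in vivo and *Nkg7* in culture. There, *Cd3d*, *Cd3g*, *Trbc2*, and *Cd8a* had 0 counts in every shRad21 library. In the shLuci culture libraries, *Cd8a* also had 0 counts, and *Cd3d*, *Cd3g*, and *Trbc2* were at or under 3 counts, so no change can be read from them. The part of these B, T, and NK cell markers in the receptor results was not tested. *Gpr171*, a Gi-coupled receptor with the highest per-kb level in shLuci cells in vivo, fell there from 268, 266 and 259.9 CPM to 183, 201 and 213 CPM, log2 fold change -0.39 (standard error 0.068, edgeR adjusted p = 0.00553). In culture, *Gpr171* was at 116, 114 and 96.7 CPM and 97.9, 84.1 and 94.7 CPM and was not called. *Hrh2*, the Gs-coupled histamine receptor, fell in culture from 8.49, 9.81 and 9.34 CPM to 6.14, 6.06 and 6.33 CPM, log2 fold change -0.57 (standard error 0.14, edgeR adjusted p = 0.0193). Its adjusted p was 0.0801 without shLuci replicate 2, 0.0600 without shRad21 replicate 1, 0.0913 without shRad21 replicate 2, and 0.0611 without shRad21 replicate 3. The in vivo groups of *Hrh2* overlapped, at 12.3, 12.6 and 10.4 CPM and 11.8, 11.3 and 9.22 CPM. *Gpr35*, a receptor known from gut and immune cells, had 8, 2 and 3 counts in shLuci and 26, 22 and 32 in shRad21 cells in culture, log2 fold change 2.19 (standard error 0.47, edgeR adjusted p = 0.00995), and an adjusted p of 0.0563 without shLuci replicate 2. Only the shRad21 libraries reached 10 counts in culture, so the entry of *Gpr35* into this test depended on the group where it was high. The shLuci counts of *Gpr35* in culture were near the detection limit. Its counts in vivo, 11, 32 and 32 in shLuci and 32, 34 and 17 in shRad21 cells, overlapped. *Gpr65*, the proton sensor, which shares 24.7% of its exonic bases with another gene model, was not called in either experiment, and *Hrh4* had at most 6 counts in a library.

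**Figure D3:**
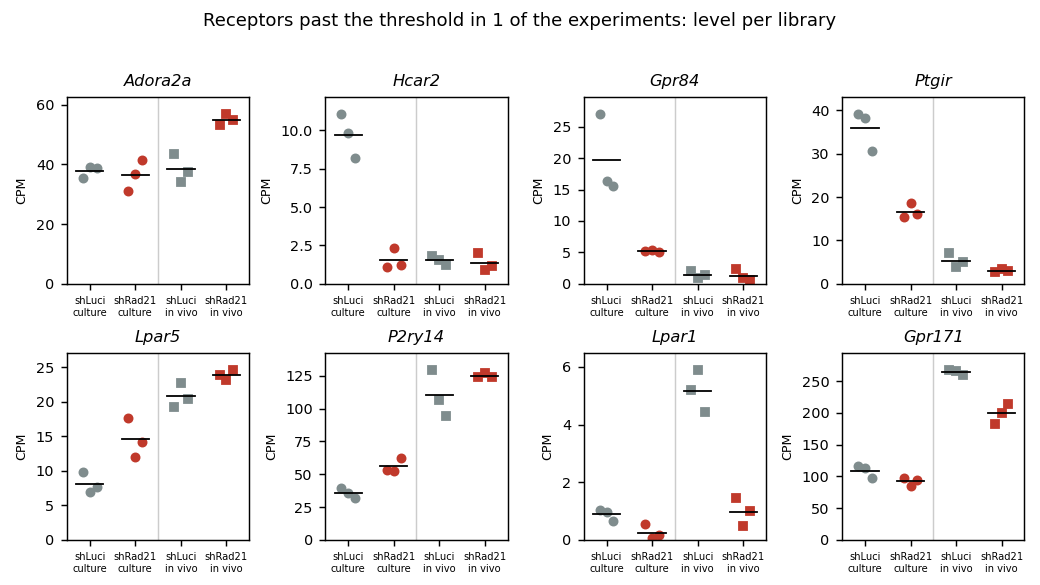
Level in CPM (y axis, starting at 0) of 8 receptors past the threshold in 1 of the experiments, 1 point per library and a line at the mean, for shLuci and shRad21 groups in culture and in vivo (x axis). *Hcar2* and *Gpr84* separate in culture, where shLuci cells are highest, and overlap in vivo, whereas *Adora2a* and *Gpr171* separate in vivo.

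A receptor called in 1 experiment and not in the other is not thereby shown to differ, so the difference between both knockdown effects was tested over all 12 libraries. Of all 17050 genes in this model, 4.67% passed the threshold. Of the 42 receptors, 4 did. The fall of *S1pr3* was larger in culture than in vivo, with a difference of log2 fold changes of -1.56 (standard error 0.23, edgeR adjusted p = 0.00143). The fall of *Hcar2* was larger in culture, with a difference of -2.47 (standard error 0.47, edgeR adjusted p = 0.00665). The rise of *F2rl2* was larger in culture, with a difference of 1.47 (standard error 0.29, edgeR adjusted p = 0.00844). *Adora2a*, which rose in vivo, differed by -0.58 (standard error 0.15, edgeR adjusted p = 0.0481), and its adjusted p was between 0.0551 and 0.121 with any 1 library left out except shLuci in vivo replicate 1 and shRad21 culture replicate 3. With the replicate number as a block, *Lpar5* and *Gpr84* also passed, at edgeR adjusted p of 0.0414 and 0.0345. For the 8 receptors called in both experiments other than *S1pr3* and *F2rl2*, the difference did not pass, with values from -0.72 for *Gpr18* to 0.33 for *F2r*.

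Leaving out both shLuci in vivo libraries that stood apart, an alternative chosen after the data had been seen, left 10 receptors called in vivo. Among them were 9 of the 16 calls: *S1pr3*, *Lpar1*, *P2ry2*, *P2ry13*, *Adora2b*, *F2r*, *Ptger2*, *Mc5r*, and *Gpr18*, and *Ptgir* was added. The other 7 kept their direction and lost the call, with edgeR adjusted p of 0.0579 for *F2rl2*, 0.0690 for *Gpr171*, 0.108 for *S1pr1*, 0.140 for *Adora2a*, 0.191 for *Lpar6*, 0.289 for *Gpr183*, and 0.292 for *Ptger3*. This fit leaves a single shLuci library, which is assumed to vary like the others. A smaller share of all genes tested passed in it as well, so the lost calls do not set these receptors apart. In the test of the difference between experiments without these libraries, the adjusted p was 0.0188 for both *S1pr3* and *F2rl2*, 0.0560 for *Hcar2*, and 0.285 for *Adora2a*.

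In shLuci cells, the receptors at the highest level per kb of exon were *F2r*, *Gpr171*, and *F2rl3* in both experiments. In culture, *F2r* was at 69.9 ± 6.23 CPM per kb (SD, n = 3), *Gpr171* at 48.9 ± 4.76 CPM per kb, and *F2rl3* at 30.3 ± 5.66 CPM per kb. *S1pr4* at 18.1 ± 2.1 and *Gpr65* at 17.3 ± 1.39 CPM per kb followed, and these neighbors differed by less than their spread. In vivo, *Gpr171* was at 119 ± 1.85 CPM per kb, *F2r* at 51.6 ± 6.35 CPM per kb, and *F2rl3* at 45.6 ± 2.13 CPM per kb, where the last 2 differed by less than the SD of *F2r*. The lowest levels in vivo were those of *Adora3*, *Cysltr1*, and *C3ar1*, and the lowest in culture those of *Gpr34*, *Gpr183*, and *P2ry12*. Except for *Cysltr1*, these receptors passed the count rule through the other setting, so their low place follows from the rule.

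More receptors differed between the settings than with the knockdown. Between shLuci cells in culture and in vivo, 12 of 42 receptors were higher and 21 lower in culture. Of all 17050 genes tested, 74.2% passed in this comparison, 37.1% higher and 37.1% lower in culture, so that the receptors' total of 33 of 42 was near that of all genes. Of the 33, 5 passed the count rule through 1 setting (*Gpr34*, *Gpr183*, and *P2ry12* in vivo, *Adora3* and *C3ar1* in culture), which fixes their difference, so they are given as counts without a fold change or test. Among the other 37 receptors, 10 were higher and 18 lower in culture. *Gpr84* was higher in culture, at a log2 difference of 3.73 (standard error 0.39, edgeR adjusted p = 4.79e-07). *Lpar2*, a receptor for lysophosphatidic acid, was at 29.4, 22.5 and 25.8 CPM in culture and 2.36, 3.03 and 5.44 CPM in vivo, log2 fold change 2.83 (standard error 0.24, edgeR adjusted p = 4.91e-08). *Ptafr* (2.20), *Ptgir* (2.75), *Cysltr1* (2.75), and *Hcar2* (2.65) were also higher in culture on the log2 scale. Lower in culture were *P2ry14*, at -1.63 (standard error 0.11, edgeR adjusted p = 6.76e-09), and *Ptger4*, at -1.54 (standard error 0.096, edgeR adjusted p = 1.88e-09). *Lpar1* (-2.54) was lower in culture by more than 2 on the log2 scale. *Gpr35*, among the 18, had 8, 2 and 3 counts in culture and 11, 32 and 32 in vivo. Of the groups compared, only the in vivo one reached 10 counts of *Gpr35*, so its call depended on the group where it was high. *Gpr183* had 1, 3 and 5 counts in culture and 90, 62 and 85 in vivo, *C3ar1* 83, 173 and 165 and 18, 7 and 6, and *Adora3* 7, 15 and 27 and 2, 2 and 0. *Gpr34* had 1, 1 and 2 counts in shLuci cells in culture, and the other low counts are given above. Of the receptors that fell with the knockdown in both experiments, *P2ry2*, *Ptger2*, *Mc5r*, *Gpr18*, and *S1pr3* were lower and *S1pr1* was higher in culture in the control cells. In this comparison, 3 calls were lost with 1 library left out. That of *Cysltr2* had an adjusted p between 0.0502 and 0.0665 without shLuci culture replicate 1 or 2 or shLuci in vivo replicate 2. For *P2ry10* it was 0.124 without shLuci culture replicate 3 and 0.105 without shLuci in vivo replicate 2. For *Hrh2* it was between 0.0502 and 0.114 without shLuci culture replicate 1 or 3, shLuci in vivo replicate 1 or 2, or shRad21 culture replicate 2 or 3. Without both shLuci in vivo libraries that stood apart, these 3 were not called either, nor was *Gpr35* (edgeR adjusted p = 0.265).

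**Figure D4:**
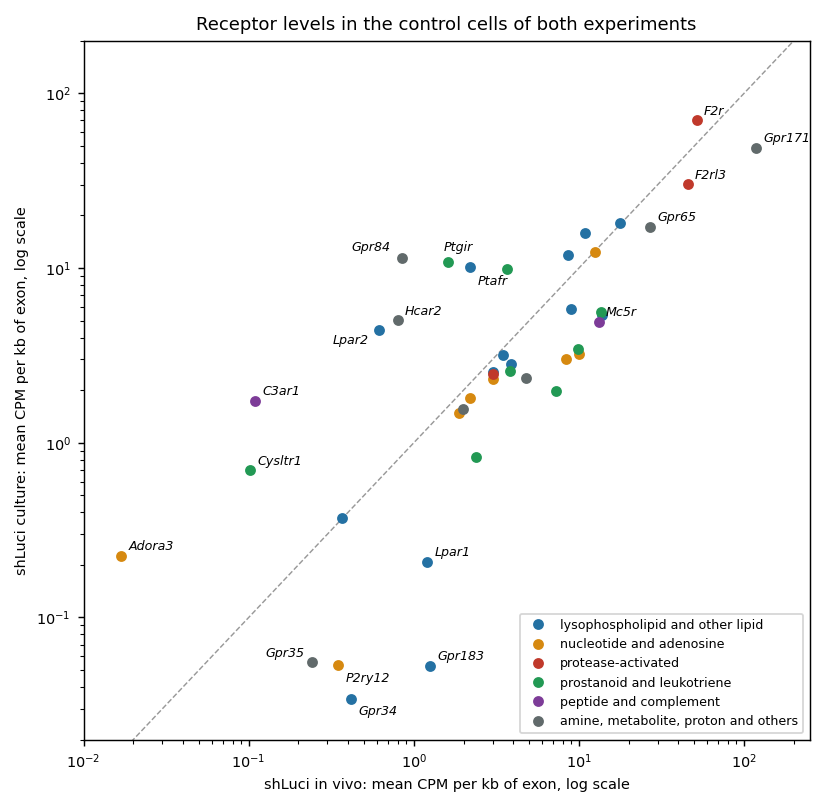
Mean level in shLuci cells, in CPM per kb of exon on log scales, of the 42 receptors in vivo (x axis) and in culture (y axis), 1 point per receptor, colored by ligand class, with a dashed line at equal levels. *Gpr84* and *Lpar2* lie above the line, *Lpar1* lies below it, and *F2r*, *Gpr171*, and *F2rl3* are at the top right. *C3ar1* (above) and *Gpr183* and *Gpr34* (below) passed the count rule through 1 setting, which fixes their place off the line.

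The signaling partners of these receptors were looked up as well. A list of 53 genes held alpha subunits, RGS proteins, receptor kinases and arrestins, and enzymes or transporters that make, move, or remove the ligands. In culture, 7 of 42 tested partners rose and 3 fell (23.8% called, against 14.2% of all genes), and in vivo 6 of 44 rose and 5 fell (25.0% called, against 11.0% of all genes). This list, too, was drawn up with results of these data known. Without both shLuci in vivo libraries that stood apart, 7 partner genes were called higher and 2 lower in vivo, and 5 of the 11 calls were lost: *Sphk1* (edgeR adjusted p = 0.0914), *Rgs19* (0.126), *Grk2* (0.0728), *Ada* (0.335), and *Spns2* (0.339). As given above, a smaller share of all genes passed in that fit, too. The medians over the partners in the main fits were 0.035 and -0.00997, against -0.0039 and -0.0019 over all genes. Of the RGS proteins, 4 of 9 tested rose in culture, and 3 of 8 rose and 2 fell in vivo. *Rgs18*, a regulator in platelets and megakaryocytes, rose in both experiments, from 208, 233 and 189 CPM to 289, 349 and 366 CPM in culture (0.68, standard error 0.11, edgeR adjusted p = 0.00183) and from 291, 314 and 339 CPM to 466, 386 and 425 CPM in vivo (0.45, standard error 0.08, edgeR adjusted p = 0.00621). *Rgs3* rose in both as well, by 0.67 in culture (edgeR adjusted p = 0.0271, and 0.0692 without shLuci replicate 1, 0.0902 without shRad21 replicate 1, and 0.0824 without shRad21 replicate 2) and by 1.22 in vivo (edgeR adjusted p = 0.00132). *Rgs14* and *Rgs2* rose in culture, by 0.60 (edgeR adjusted p = 0.00345) and 0.63 (edgeR adjusted p = 0.0155), the latter with an adjusted p of 0.0561 without shRad21 replicate 3. In vivo, *Rgs1* rose from 109.9, 104 and 128 CPM to 185, 166 and 167 CPM, log2 fold change 0.62 (standard error 0.083, edgeR adjusted p = 0.00144), with an adjusted p of 0.0531 in 1 model of all 12 libraries. *Rgs10* changed by -1.54 (standard error 0.17, edgeR adjusted p = 0.000572) and *Rgs19* by -0.30 (standard error 0.066, edgeR adjusted p = 0.0177) in vivo, the last with an adjusted p of 0.0605 without shRad21 replicate 1 and 0.0750 without shRad21 replicate 3.

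Of the alpha subunits, *Gnaz* rose in culture (0.68, standard error 0.19, edgeR adjusted p = 0.0363) and *Gna12* fell (-0.41, standard error 0.09, edgeR adjusted p = 0.0117). The *Gnaz* call was lost with 4 of the 6 libraries left out in turn (shLuci replicates 1 and 2, and shRad21 replicates 2 and 3, adjusted p 0.0987 to 0.142) and that of *Gna12* with 3 (shLuci replicate 2, and shRad21 replicates 1 and 3, adjusted p 0.0503 to 0.0586). In vivo, *Gnai1* rose from 0.311, 1.46 and 0.973 CPM to 4.58, 2.29 and 4.05 CPM, log2 fold change 2.01 (standard error 0.48, edgeR adjusted p = 0.0254), with an adjusted p of 0.0653 without shLuci replicate 3, 0.0895 without shRad21 replicate 1, and 0.0955 without shRad21 replicate 3. Among receptor kinases and arrestins, none of 7 was called in culture by edgeR, where 1 had an unadjusted p under 0.05, and *Grk2* fell by 0.26 on the log2 scale in vivo (edgeR adjusted p = 0.0308, between 0.0811 and 0.128 without shLuci replicates 1 or 3 or shRad21 replicates 1 or 3).

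Sphingosine 1-phosphate is made by sphingosine kinases, exported by Spns2 and Mfsd2b, and broken down by its lyase Sgpl1. *Sphk1*, one of the kinases, fell in vivo from 2.0, 3.43 and 4.65 CPM to 0.687, 0.404 and 0.518 CPM, log2 fold change -2.62 (standard error 0.39, edgeR adjusted p = 0.00258), and had at most 2 counts in any culture library. *Sgpl1* rose in culture from 70.7, 68.7 and 69.8 CPM to 106, 95.2 and 112 CPM, log2 fold change 0.59 (standard error 0.082, edgeR adjusted p = 0.000888). *Mfsd2b*, the exporter of red cells and platelets, rose in culture from 9.26, 16.4 and 23.9 CPM to 27.5, 46.6 and 44.8 CPM, log2 fold change 1.25 (standard error 0.28, edgeR adjusted p = 0.0129), with an adjusted p of 0.0657 without shLuci replicate 2. *Spns2* rose by 0.21 in vivo (edgeR adjusted p = 0.0416, between 0.0699 and 0.165 with any library other than shRad21 replicate 1 left out). *Plpp3*, a lipid phosphatase that removes lysophosphatidic acid, rose by 0.84 in vivo (edgeR adjusted p = 0.0326, between 0.0749 and 0.116 with any library other than shLuci replicate 3 left out). For adenosine, *Nt5e*, the ectoenzyme CD73 that makes it, fell in culture from 1.26, 2.21 and 2.66 CPM to 0.165, 0.354 and 0.285 CPM, log2 fold change -2.95 (standard error 0.39, edgeR adjusted p = 0.000643). These levels were 18, 43 and 57 counts in shLuci and 4, 7 and 8 counts in shRad21 cells. Only the shLuci libraries reached the minimum count in culture, so the entry of *Nt5e* into this test depended on the group where it was high. The shRad21 counts of *Nt5e* in culture were near the detection limit. *Ada*, which removes adenosine, fell by 0.29 on the log2 scale in vivo (edgeR adjusted p = 0.0289, between 0.0566 and 0.111 with any 1 library left out). *C3*, the source of the ligand of *C3ar1*, fell in culture from 11.9, 29.9 and 19.9 CPM to 0.948, 1.97 and 2.85 CPM, log2 fold change -3.40 (standard error 0.38, edgeR adjusted p = 0.000259), and was at 7.47, 6.61 and 5.93 CPM and 6.55, 6.87 and 8.52 CPM in vivo.

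Several of the receptor genes lie next to each other, and some neighbors rose or fell together and some did not. With gaps of at most 200 kb, 17 of the 49 listed genes fell into 7 groups. On chromosome 3, *Gpr171*, *P2ry14*, *P2ry13*, and *P2ry12* lie on the minus strand within 166 kb (59096448 to 59262871). There, *P2ry14* rose and *P2ry13* fell in culture, and *Gpr171* and *P2ry13* fell in vivo. Of the 4 other genes tested within 250 kb of this stretch, 1 was called in each experiment. On chromosome 13, *F2rl1*, *F2r*, and *F2rl2* span 191 kb, and the 2 kept members, *F2r* and *F2rl2*, rose in both experiments. Of the 3 other tested genes, 1 was called in culture, *Iqgap2*, which also rose (log2 fold change 0.39), and 0 in vivo by edgeR. On chromosome 14, *Gpr18* and *Gpr183* lie within 53.9 kb on the same strand. In vivo, *Gpr18* fell and *Gpr183* rose, and 1 of the 6 other genes tested within 250 kb was called, *Ubac2*, which fell in both experiments. On chromosome 7, *P2ry2* fell in both experiments, as did *Fchsd2*, 1 of the 4 other genes tested there in culture and 1 of 2 called among 5 in vivo.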

How the data were processed

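RNA-seq libraries were made from 12 samples in 4 groups of 3. According to the study's methods and the submitters' processing notes, reads were demultiplexed with bcl2fastq 1.8.4, checked with FastQC 0.11.3, filtered with SortMeRNA and Prinseq, aligned with TopHat2 2.0.11 to the mouse genome (GRCm38), and counted per gene with HTSeq 0.6.1. The authors deposited whole-number counts per gene, not normalized, and these counts were used here. The strand setting of the counting was not given in the sources used here, and neither kit marks strand. The authors' own DESeq2 1.16.1 comparisons were not used. Gene names were taken from GENCODE (GRCm38), in which 45229 of 46078 identifiers matched. CPM per kb are CPM divided by the union of a gene's exons.

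Counts were tested with edgeR 4.0.16 (limma 3.58.1, R 4.3.3), using TMM, filterByExpr (minimum count 10, minimum total 15), the quasi-likelihood test, and Benjamini-Hochberg adjustment over all genes tested, with a threshold of 0.05. The knockdown was fitted within the 6 libraries of an experiment, and the comparison of control cells and the difference of the knockdown effects within 1 model of all 12. Log2 fold changes are shRad21 over shLuci or culture over in vivo, and the standard error is the size of the fold change divided by the square root of the F statistic. Replicates differed beyond counting noise (chi-square per degree of freedom 6.16 to 22.6). Same-numbered libraries deviated together in culture (r = 0.241 to 0.278, other pairs -0.332 to 0.0586) but not in vivo (0.0181 to 0.0823, other pairs -0.116 to 0.0606), so the numbers were taken to pair the culture libraries, from the data and not from a stated batch. The alternatives were DESeq2 1.42.0, upper-quartile scaling, scaling by library size, testing every gene with a count, the replicate number as a block, 1 model of all libraries, and leaving out each library. On simulated counts, the test for culture called 74% of 100 genes changed by 1 and 94% of 100 changed by 2 on the log2 scale among 15426 genes, and the test in vivo 83% and 93% among 15841. False calls were 2.89% of all calls in the simulation for culture and 8.81% in that for in vivo, above the threshold of 0.05. The 200 changed genes of each simulation were drawn from those with a mean above 1 CPM. They were a smaller share of genes than was called in the data. These rates therefore do not cover receptors at lower levels or the larger share of changed genes.

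Members and lists were chosen with earlier results of these data known. All 49 listed receptors are accounted for, with values in both experiments for those past the threshold in a knockdown comparison or the test of its difference, and partner genes are named only where called or undetected. Plots were drawn with matplotlib 3.10.9 and tables assembled with pandas 2.3.3 on NumPy 2.4.6 and Python 3.11.15.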

Additional observations from a re-analysis of the deposited data

Results flagged for a closer look

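For 8 genes, the knockdown effect differed between culture and in vivo in a test of the difference itself (edgeR, 12 libraries, culture minus in vivo on the log2 scale). Among the receptors, these were *S1pr3* (-1.56), *Hcar2* (-2.47), *F2rl2* (1.47), and *Adora2a* (-0.58), whose values are given in the report. Among the partner genes, *C3*, the complement protein, differed by -3.54 (edgeR adjusted p = 0.000744), with a fall in culture and overlapping groups in vivo. *Sgpl1*, the sphingosine 1-phosphate lyase, differed by 0.68 (edgeR adjusted p = 0.00356). *Rgs1*, a regulator of G protein signaling in lymphocytes, differed by -1.25 (edgeR adjusted p = 0.0166), and this was 0.0525 without shLuci culture replicate 2 and 0.0666 without both shLuci in vivo libraries that stood apart. *Rgs19*, of the same family, differed by 0.37 (edgeR adjusted p = 0.0410), a call lost without any library other than shLuci in vivo replicate 2, with adjusted p from 0.0546 to 0.116, and at 0.126 without both shLuci in vivo libraries that stood apart. The kit, the sort gate, and the lane differed between both experiments, so that they and the setting cannot be told apart.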

How the results depend on the processing

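None of the 1093 alternative values of 74 receptor results past the threshold reversed, 1022 stayed past it, and 71 did not. The 74 include the 5 calls between control cells that the count rule fixed. With 1 library left out, the receptors called numbered 17 to 22 in culture, 12 to 15 in vivo, 31 to 34 between control cells, and 3 to 5 for the difference of the knockdown effects, and the partner genes called 7 to 12 in culture and 6 to 10 in vivo. Over all genes, these fits called 1352 to 2817 in culture and 951 to 1562 in vivo, against 2213 and 1749 in the main fits. They called 12180 to 12931 between control cells and 492 to 845 for the difference, against 12652 and 796. The difference of the effects was called for 7 receptors by DESeq2 and for 7 with every counted gene tested, and 17 partner genes were called in vivo in the latter setting, which tests more genes. Without both shLuci in vivo libraries that stood apart (chosen after the data were seen), 10 receptors were called in vivo, 1 higher and 9 lower, and 28 between control cells. A smaller share of all genes passed in that fit, too. The replicate block gave 24 receptors and 14 partner genes in culture, 15 and 9 in vivo, and 6 receptors for the difference of effects. Over all genes, the block called 3186 in culture, 1678 in vivo, and 991 for the difference. In vivo the replicate numbers did not pair the libraries, and there the block took away the calls of the receptor *Gpr183* (edgeR adjusted p = 0.0558) and of the partner genes *Grk2* (0.0581) and *Spns2* (0.0718). No paired analysis was possible for control cells because culture and in vivo libraries are separate experiments. Scaling by library size moved the median of all genes between control cells to -0.18 and upper-quartile scaling to -0.12, and the receptors called kept their directions. With 3 libraries per group, the simulated recovery of genes changed by 1 on the log2 scale was 64% for the difference of effects, among 16785 genes.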
